A study of Mus musculus with 7 samples.

Results

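Plasminogen activation and blood coagulation were represented by 8 genes, followed in mouse intestinal epithelial cells after deletion of Mob1a and Mob1b: Plat, Plau, Plaur, Serpine2, F3, Tfpi, Procr and Thbd. They were chosen by name, and the probes were those whose accession in the scanner files belongs to a listed symbol. All 8 genes were on the array, with 11 probes, of 20887 genes that could be named. Of the 8, 4 (Plat, Plaur, F3 and Tfpi) were bright enough to be tested, 1 (Procr) was well above background on 1 array only, and 3 (Plau, Serpine2 and Thbd) were well above background on no array.

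Plasmin is a protease that dissolves fibrin and cleaves extracellular matrix. It is made from plasminogen by tissue-type plasminogen activator (Plat) and urokinase (Plau), of which urokinase is held at the cell surface by its receptor (Plaur), and the serpin Serpine2 inhibits both activators. Coagulation starts when tissue factor (F3) binds factor VII, a step that tissue factor pathway inhibitor (Tfpi) blocks, while thrombomodulin (Thbd) and the endothelial protein C receptor (Procr) help to activate the anticoagulant protein C. Tissue factor and the urokinase receptor are also known from epithelia, where their levels rise in injury and inflammation.

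All mice carried floxed alleles of both genes (Mob1a f/f; Mob1b f/f), were male, on a C57BL/6J background after more than 6 generations of backcrossing, and received tamoxifen intraperitoneally at 8 weeks of age, 80 mg/kg per day for 2 days. Mob1a and Mob1b are adaptors of the Lats kinases in the Hippo pathway. Knockout mice also carried Villin-creERT2, a tamoxifen-dependent Cre driven by an epithelial promoter, and were sampled at day 4 (n = 2), day 7 (n = 2) and day 10 (n = 1). The controls (n = 2) had no Cre, so that effects of CreERT2 activity and of the deletion cannot be told apart. Their sample descriptions place them 7 days after tamoxifen, while the study's design text speaks of day 0, of different mice at each time, and of no day 10. Cells were released from the proximal intestine with 2 mM EDTA and their total RNA was hybridised to 1-colour arrays.

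The arrays lay on 1 slide, controls and day 4 in its row 1, day 7 and day 10 in its row 2, and the later times and the row therefore cannot be told apart. The lone day 10 array stood apart: its correlations with the other arrays over all features tested were 0.865 to 0.919, against 0.945 to 0.988 for the 15 pairs among the other 6 arrays. Its tests assume that it varies like the other groups. Being alone in its group, it adds nothing to the estimate of the spread. For the features tested here, the differences at day 4 and day 7 are therefore the same without it. It did count in the filter on dim probes, which Plat passed only through the first day 7 array and the day 10 array. No spot was saturated, and each array had 45.2% to 51.3% of its probes well above background. All 12 epithelial markers checked, among them Epcam and Krt8, were well above background on every array. Mob1b was lower than control on all 5 knockout arrays (-1.59 ± 0.22 at day 7, log2 difference ± SE, limma adjusted p = 0.014), and the dim Mob1a probe was not (0.25 ± 0.25, adjusted p = 0.59). On the day 10 array the Mob1a probe was higher than control, by 1.60 ± 0.30. Whether these probes lie in the deleted exons is not known.

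Signals below are background-corrected scanner units, not scaled between arrays. The day 10 array had a 75th percentile of 545, against 315 to 395 on the others. Its signals therefore read higher beside the others than its scaled levels do. Differences are on the log2 scale after each array was set to its 75th percentile, with the standard error (SE) of limma's fit over all 7 arrays and a Benjamini-Hochberg adjusted p over 24763 features, called under 0.05. A fold written "at least" is a lower bound, because none of the dimmer group's arrays had the probe well above background. In it, the bright group's mean is divided by the detection limit of those arrays (their lowest signal that counted as well above background), or by the probe's own signal where that is higher.

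At day 4 none of the 4 genes tested was called, where limma called 0.0323% of all features, all of them higher. Over all features 1543 had an unadjusted p under 0.05, and F3 was the only one of the 4 genes with one (0.0054). At day 7 Plat, Plaur and F3 were called higher, where 7.46% of all features were called, 2.96% higher and 4.5% lower. On the day 10 array the same 3 were called higher and Tfpi lower, where 28.1% of features were called, 10.5% higher and 17.6% lower. Between day 4 and day 7 only Plaur was called higher (2.67% of features called, 1.24% higher and 1.43% lower), and between day 7 and day 10 Plat, Plaur and F3 were called higher and Tfpi lower (17.9% called, 7.2% higher and 10.7% lower). These shares are also the background for the counts called in the gene and marker lists below. Their split between higher and lower moved with the scaling. Scaled to probes detected on all arrays, 49.1% of the calls at day 10 were higher in place of 37.2%, and 51.0% in place of 40.2% between day 7 and day 10. With median scaling it was 35.1% in place of 46.4% between day 4 and day 7, and 88.9% in place of 100% at day 4.

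**Figure D1:**
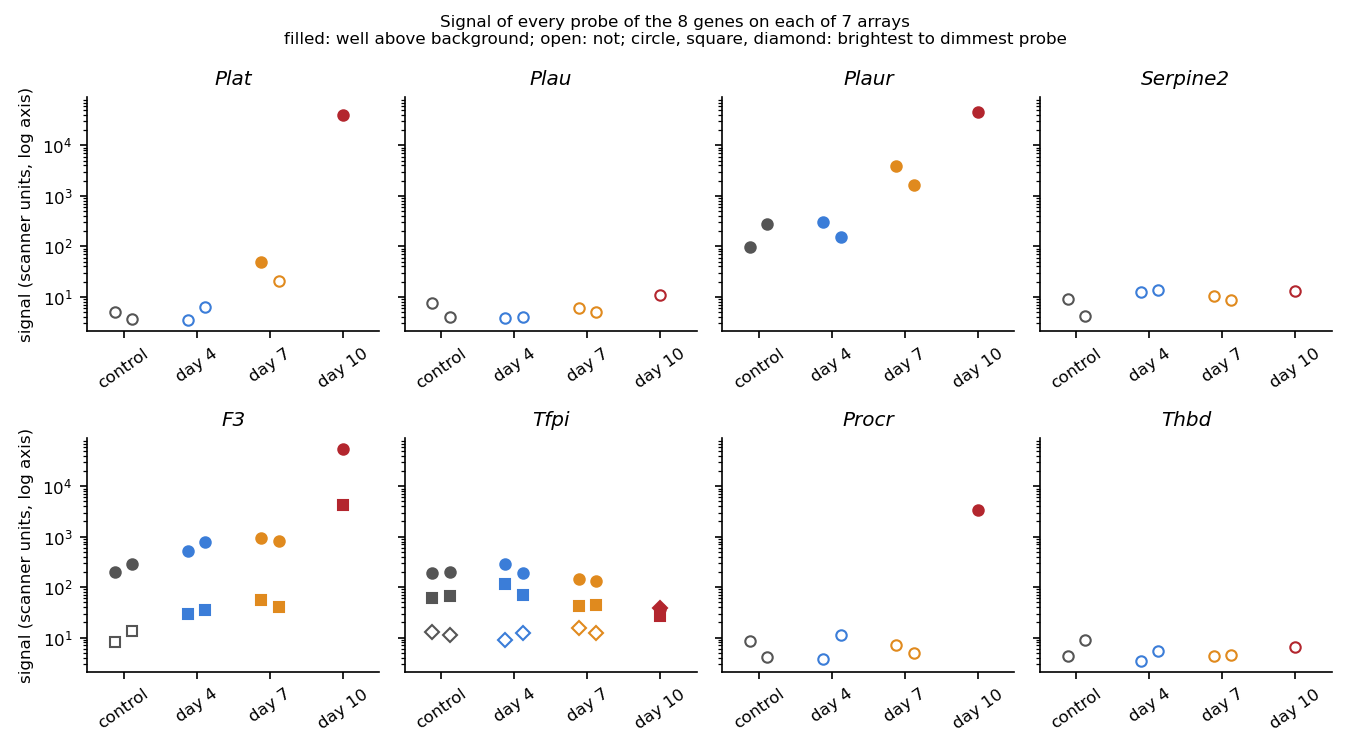
Signal (scanner units, log axis) of every probe of the 8 genes on each of the 7 arrays, by group. Signals are not scaled between arrays. Filled points are well above background and open points are not, and the marker shape ranks the probes of a gene by brightness. Plat, Plaur, F3 and Procr are highest on the day 10 array, Plaur and F3 are also higher on both day 7 arrays than on both controls, and Plau, Serpine2 and Thbd stay in open points throughout.

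RefSeq promoter sequences (assembly GRCm38.p6) were at hand for Plaur, F3, Procr, Tfpi and Serpine2, and not for Plat, Plau and Thbd. Of these 5 genes, Plaur, F3 and Procr held the letters TGANTCA, the motif of AP-1 (dimers of Fos and Jun proteins). The search covered the 300 bases from 250 before to 50 after the start of the gene. Serpine2, at background on all arrays, and both Tfpi entries did not hold it. Whether the motif bears on the course of any of these genes was not tested. The motif reads the same on both strands, and 7.81% of 32851 promoters of that length hold it. The 250 bases before the start are printed here because they carry these matches, with the motif in capitals, on the strand of the gene, which is the plus strand in all 3.
Plaur, chr7:24462233-24462482: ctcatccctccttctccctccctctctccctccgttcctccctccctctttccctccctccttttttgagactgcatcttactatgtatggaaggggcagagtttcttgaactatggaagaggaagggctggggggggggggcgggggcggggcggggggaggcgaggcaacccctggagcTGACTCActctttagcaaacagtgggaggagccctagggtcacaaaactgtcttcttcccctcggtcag
F3, chr3:121723287-121723536: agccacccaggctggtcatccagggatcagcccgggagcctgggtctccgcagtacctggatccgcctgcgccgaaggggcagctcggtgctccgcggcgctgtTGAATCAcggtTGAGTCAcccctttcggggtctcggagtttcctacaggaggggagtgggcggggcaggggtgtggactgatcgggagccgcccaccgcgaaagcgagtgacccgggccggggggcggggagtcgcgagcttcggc
Procr, chr2:155750967-155751216: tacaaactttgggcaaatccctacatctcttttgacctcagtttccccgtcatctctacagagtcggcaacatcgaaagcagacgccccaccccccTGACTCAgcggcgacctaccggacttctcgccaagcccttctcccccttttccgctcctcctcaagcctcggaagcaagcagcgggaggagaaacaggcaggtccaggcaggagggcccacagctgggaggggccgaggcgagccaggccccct

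The first letter of the motif lay 69 bases before the start in Plaur, 146 and 135 bases before it in F3, and 154 bases before it in Procr. None of the 5 genes held GGAATG, the core motif of the TEAD factors through which the Hippo-regulated coactivators act, on either strand, where 14.7% of all promoters hold it. The GC box, GGGCGG on either strand, occurred in Plaur (3 matches), F3 (3), Serpine2 (6) and both Tfpi entries (1 each) but not in Procr, and in 35.7% of all promoters. Neighbouring GC boxes can share a base, and none overlapped an AP-1 match. TATAAA on either strand, found in 13.6% of all promoters, had 1 match in F3, after the start, and 1 in a Tfpi entry. These are matches of letters, and binding was not measured.

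Among the plasminogen activators, Plat went from background in controls to a strong signal on the day 10 array, and Plau stayed at background. The Plat probe (A_52_P409833) had signals of 4.999 and 3.58 in controls, 3.39 and 6.23 at day 4, 48.9 and 20.8 at day 7, and 40630 at day 10. It was well above background on the first day 7 array and the day 10 array only, and both day 7 arrays lay above all control and day 4 arrays. Since Plat was tested only because of its late arrays, its calls had to show a difference and are given as a description. It was at least 2.57-fold higher than control at day 7 (adjusted p = 0.033) and at least 2076-fold higher at day 10 (adjusted p = 0.00025). From day 7 to day 10 it rose by 9.66 ± 0.68, a step set partly against a background signal, that of the second day 7 array.

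The day 7 call of Plat ended with normexp background correction, which adds an offset to dim signals (0.52, adjusted p = 0.31), and in 7 other alternatives, among them leaving dim probes unfiltered (adjusted p = 0.084) and the lack of either control, either day 4 array or the first day 7 array (0.061 to 0.118). Urokinase had 1 probe, with signals from 3.79 to 10.6 over the 7 arrays, none well above background. It gives no level or fold.

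Plaur, the urokinase receptor, was called higher at day 7 and at day 10. Its probe (A_52_P681310) was well above background on all arrays, with signals of 98.6 and 277 in controls, 303 and 151 at day 4, 3843 and 1623 at day 7, and 46764 at day 10. Control and day 4 arrays overlapped, both day 7 arrays lay above all of them, and the day 10 array lay above both day 7 arrays. At day 4 Plaur was 0.22 ± 0.62 from control (adjusted p = 0.996). It rose 14.9-fold at day 7 (3.90 ± 0.62, adjusted p = 0.019) and was 177-fold higher at day 10 (7.47 ± 0.75, adjusted p = 0.0012).

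Both steps between the knockout times were also called for Plaur: 12.7-fold from day 4 to day 7 (3.67 ± 0.62, adjusted p = 0.042) and 11.9-fold from day 7 to day 10 (3.57 ± 0.75, adjusted p = 0.024). The day 7 call was lost without the filter on dim probes (adjusted p = 0.051) and when control replicate 1 (0.081) or day 7 replicate 1 (0.080) was left out, with differences between 3.22 and 4.57 over all alternatives. The step from day 4 to day 7 ended without either day 4 array (0.148 and 0.262), without day 7 replicate 1 (0.157) or without the filter on dim probes (0.106). The step from day 7 to day 10 ended without day 7 replicate 2 (0.067). These are bulk samples, in which more cells of a type and more RNA per cell cannot be told apart, for Plaur and every gene below.

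Serpine2, an inhibitor of both activators, had signals between 4.10 and 13.4 on its 1 probe, at background throughout. No level or fold is given for it.

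Of 15 further plasminogen activation genes listed, 12 could be tested, and Plg itself, Serpinb2 and Mrc2 were well above background on no array. None was called at day 4. At day 7, 2 fell (Serpinf2 and Vldlr) and none rose, with a median difference of -0.42 over the 12 against -0.08 over all features. At day 10, 1 rose (the lipoprotein receptor Lrp8) and 4 fell (Serpinf2, Serpini1, the plasminogen receptor Plgrkt and the clearance receptor Lrp1), with a median of -0.86 against -0.15.

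Serpinf2, alpha-2-antiplasmin, the main inhibitor of free plasmin, had signals of 241 and 377 in controls, 230 and 349 at day 4, 64.0 and 77.7 at day 7, and 37.0 at day 10. All 3 late arrays lay below the 4 early ones. It fell by 2.12 ± 0.31 at day 7 (adjusted p = 0.016) and by 3.71 ± 0.38 at day 10 (adjusted p = 0.0014). The day 7 call ended with normexp (-0.92, adjusted p = 0.28) and without either control (0.057 and 0.064) or day 7 replicate 1 (0.077). Vldlr, a lipoprotein receptor that also takes up complexes of proteases with serpins, had signals of 226 and 240 in controls, 185 and 302 at day 4, 38.0 and 61.2 at day 7, and 196 at day 10, lowest on the day 7 arrays. It fell by 2.30 ± 0.35 at day 7 (adjusted p = 0.018) and differed by -0.93 ± 0.43 at day 10 (adjusted p = 0.16). Its day 7 call ended without either control (0.090 and 0.059) or without day 7 replicate 1 (0.081), and normexp reduced it to -1.24. Serpini1, neuroserpin, an inhibitor of tissue-type activator, was at background on the day 7 and day 10 arrays, at least 2.77-fold lower than control at day 7 (adjusted p = 0.064) and at least 3.22-fold lower at day 10 (adjusted p = 0.024), a call that ended without control replicate 1 (0.086). Serpini1 passed the filter through the control and day 4 arrays only, so its tests are a description. Lrp1, an uptake receptor for complexes of proteases with serpins, had signals of 2530 and 2594 in controls, 1788 and 2579 at day 4, 1011 and 1679 at day 7, and 366 at day 10, the lowest. It differed by -0.997 ± 0.33 at day 7 (adjusted p = 0.14) and fell 11.2-fold at day 10 (-3.49 ± 0.40, adjusted p = 0.0020). Plgrkt fell 4.08-fold at day 10 (adjusted p = 0.0086). Anxa2 and S100a10, the subunits of a surface receptor for plasminogen and Plat, were bright on all arrays and differed by 0.45 ± 0.32 and 0.68 ± 0.25 at day 10 (adjusted p = 0.34 and 0.089).

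F3, tissue factor, was already higher than both controls on both day 4 arrays and was then the 71st highest difference of all features on the day 10 array. Its brighter probe (A_55_P1971889) had signals of 204 and 281 in controls, 524 and 784 at day 4, 924 and 808 at day 7, and 55084 at day 10. The groups did not overlap between control and any knockout time. At day 4 it stood 1.27 ± 0.30 above control (adjusted p = 0.43). F3 rose 3.56-fold at day 7 (1.83 ± 0.30, adjusted p = 0.021) and was 144-fold higher at day 10 (7.17 ± 0.37, adjusted p = 0.00023).

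Day 7 and day 4 differed in F3 by 0.56 ± 0.30 (adjusted p = 0.41), and from day 7 to day 10 it rose 40.5-fold (5.34 ± 0.37, adjusted p = 0.00097). The second F3 probe (A_65_P08971) gave signals of 8.37 and 13.7 in controls, which were not well above background, 29.1 and 35.5 at day 4, 55.7 and 40.5 at day 7, and 4202 at day 10. It ran the same way, at least 2.27-fold, 3.65-fold and 205-fold above control at days 4, 7 and 10. The day 7 call ended without control replicate 1 (adjusted p = 0.113) or 2 (0.064), without day 7 replicate 1 (0.099) and with no filter on dim probes (0.057), with differences between 1.42 and 1.98 over all alternatives.

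Tfpi, the inhibitor of tissue factor with factor VII, was lower on the day 10 array by its brighter probes and higher by its dimmest. The brightest (A_66_P132295) had signals of 193 and 202 in controls, 293 and 189 at day 4, 144 and 135 at day 7, and 37.7 at day 10. Control and day 4 arrays overlapped, both day 7 arrays lay below them, and the day 10 array lay below all others. Against control, Tfpi was at 0.11 ± 0.26 on day 4 (adjusted p = 0.994) and at -0.53 ± 0.26 on day 7 (adjusted p = 0.29), and was 8.36-fold lower at day 10 (-3.06 ± 0.31, adjusted p = 0.0013). From day 7 to day 10 it fell by 2.54 ± 0.31 (adjusted p = 0.0041). Normexp reduced the day 10 difference to -1.90, which stayed called.

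The second Tfpi probe (A_55_P2095360) had signals of 61.6 and 65.6 in controls, 115 and 69.4 at day 4, 42.5 and 44.9 at day 7, and 26.7 at day 10, a difference of -1.93 at day 10. The third (A_52_P670263), assigned to another RefSeq transcript of Tfpi, had signals from 8.80 to 15.2 on the first 6 arrays, none well above background, and 38.8 at day 10, at least 1.92-fold higher than control. The probes of Tfpi thus disagree at day 10, and only the brightest was in the test.

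**Figure D2:**
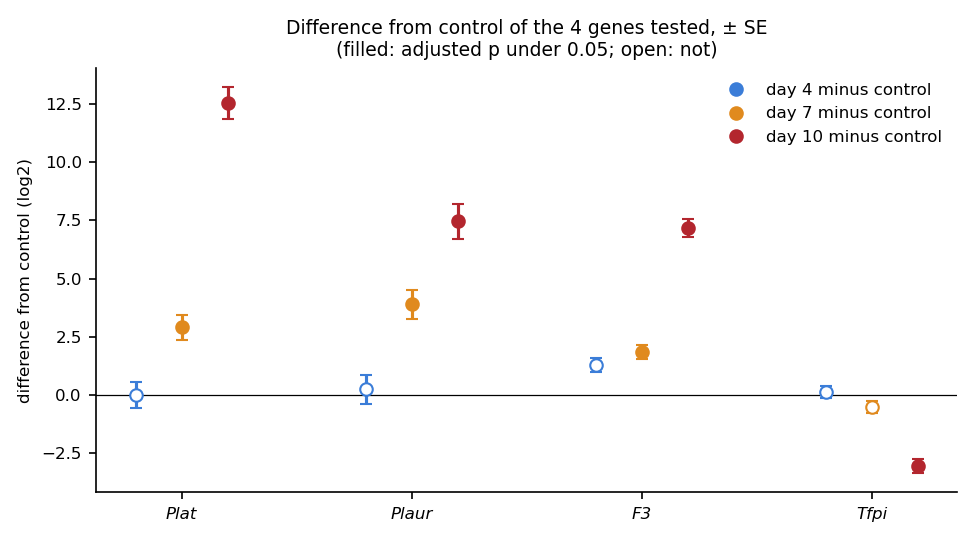
Difference from control (log2, points) with the SE of limma's fit (bars) for the 4 genes tested, at day 4, day 7 and day 10. Filled points have an adjusted p under 0.05. At day 4 all 4 points are open, at day 7 Plat, Plaur and F3 are filled between 1.83 and 3.90, and at day 10 Plaur is at 7.47, F3 at 7.17 and Tfpi at -3.06. The Plat differences are set against background signals in controls and are no measured size.

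Of the protein C pathway members, Procr was seen on the day 10 array only and Thbd on none. Procr (probe A_51_P382152) had signals of 8.55 and 4.07 in controls, 3.76 and 11.1 at day 4, 7.10 and 4.96 at day 7, and 3396 at day 10. The first 6 arrays overlapped at background and the day 10 array lay above all of them, at least 173-fold above control and at least 135-fold above day 7. It was left out of the test, which needed a probe well above background on 2 of 7 arrays. Fitted without that filter, Procr differed by 8.49 from control and by 8.50 from day 7 at day 10. These differences rest on 1 array set against background signals, so they are a description and no measured size. Thrombomodulin had 1 probe, with signals from 3.46 to 9.02, and gives no level.

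Protein C, which Procr and Thbd help to activate, and its cofactor protein S were measurable, and both fell at day 7. Pros1, which encodes protein S, had signals of 177 and 177 in controls, 121 and 148 at day 4, 27.6 and 31.2 at day 7, and 36.9 at day 10. The late arrays lay well below the early ones. Pros1 fell 6.14-fold at day 7 (-2.62 ± 0.24, adjusted p = 0.0046) and 7.69-fold at day 10 (-2.94 ± 0.30, adjusted p = 0.0012), and was called at day 7 in all 17 alternatives. Proc, the zymogen of protein C, had signals of 351 and 378 in controls, 331 and 351 at day 4, 171 and 191 at day 7, and 206 at day 10. It fell 2.05-fold at day 7 (-1.03 ± 0.21, adjusted p = 0.040), a call that ended in 9 of 17 alternatives, among them the loss of any 1 of the control, day 4 or day 7 arrays (0.073 to 0.208), and 2.83-fold at day 10 (-1.50 ± 0.26, adjusted p = 0.0082).

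Of 25 further coagulation and anticoagulant genes listed, 13 could be tested. The fibrinogen genes Fga, Fgb and Fgg, and F8, F13b, Kng1 and Serpind1 were well above background on no array, and F7, whose product binds tissue factor, was so on 1. None was called at day 4. At day 7, 3 fell (Pros1, Proc and Serpina10) and none rose, with a median difference of -0.39 against -0.08 over all features. At day 10, 6 fell (F2, Klkb1, Proc, Pros1, Gas6 and Vkorc1) and none rose, with a median of -0.82 against -0.15. Serpina10, an inhibitor of activated factor X, fell by 1.51 ± 0.30 at day 7 (limma adjusted p = 0.036). That call ended in 8 of 16 alternatives. Among them were normexp (-0.54, adjusted p = 0.23) and the lack of either control, either day 4 array or day 7 replicate 1. At day 10 Serpina10 differed by 0.46 ± 0.36 and was not called. F2, prothrombin, at background on all 3 late arrays, was at least 1.71-fold lower at day 7 (adjusted p = 0.13) and at least 2.18-fold lower at day 10 (adjusted p = 0.0063). F2 passed the filter through the control and day 4 arrays only, so its tests are a description. F13a1, the A chain of factor XIII, which crosslinks fibrin, was at background on the first 6 arrays (3.20 to 11.8) and had a signal of 109 at day 10, at least 5.58-fold above control, and was not tested. F10 is the target of tissue factor with factor VII. It differed by -0.26 ± 0.73 at day 7 (adjusted p = 0.87).

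The receptors through which thrombin and other proteases act on cells, and the membrane proteases of the epithelium with their inhibitors, formed a list of 12 genes, of which 10 could be tested. None was called at day 4. At day 7, 1 fell (Hgfac) and none rose, with a median of 0.17 against -0.08 over all features. At day 10, 3 rose (F2r, F2rl1 and Tmprss2) and Hgfac was lower, with a median of 0.10 against -0.15. F2rl1, protease-activated receptor 2, had signals of 143 and 182 in controls, 189 and 233 at day 4, 286 and 361 at day 7, and 658 at day 10. Both day 7 arrays lay above both controls, and the day 10 array lay highest. Its difference was 0.97 ± 0.24 at day 7 (adjusted p = 0.073), and it rose by 1.35 ± 0.30 at day 10 (adjusted p = 0.020), a call that ended without control replicate 1 (0.077) or 2 (0.056).

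F2r, the thrombin receptor, rose 2.20-fold at day 10 (1.14 ± 0.31, adjusted p = 0.041). Tmprss2, a membrane serine protease, differed by 0.85 ± 0.29 at day 7 (adjusted p = 0.15) and rose by 1.51 ± 0.35 at day 10 (adjusted p = 0.023), a call that ended without control replicate 1 (0.080), without either day 4 array (0.052), with median scaling (0.064) and with only the groups compared (0.078). Hgfac, the protease that activates hepatocyte growth factor, fell by 2.37 ± 0.31 at day 7 (adjusted p = 0.011, and 0.057 without day 7 replicate 1) and differed by -1.45 ± 0.38 at day 10 (adjusted p = 0.034), a call that ended in 8 of 16 alternatives, with normexp at -0.68. Hpn, the membrane protease hepsin, differed by -0.99 ± 0.37 at day 7 (adjusted p = 0.18).

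**Figure D3:**
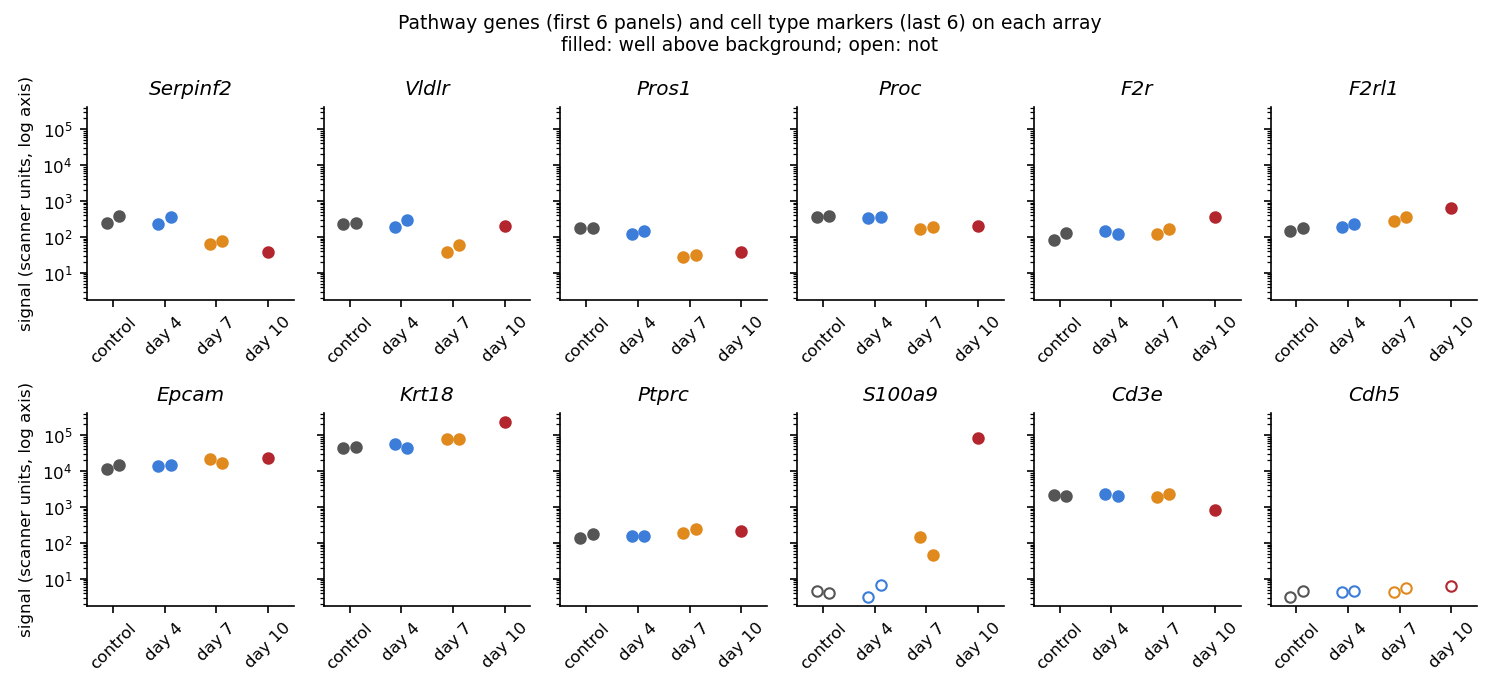
Signal (scanner units, log axis) on each of the 7 arrays, by group, of 6 genes of the pathway lists (upper panels) and 6 cell type markers (lower panels). Signals are not scaled between arrays. Filled points are well above background and open points are not. Vldlr is low at 38.0 and 61.2 on the day 7 arrays, Serpinf2 and Pros1 are low on all 3 late arrays, S100a9 reaches 81370 at day 10, and the endothelial marker Cdh5 stays at background.

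Several of the members are also made by endothelial cells, platelets and white blood cells, and some markers of these moved with the late arrays. Of 12 markers of macrophages and neutrophils, 10 could be tested. S100a9, a neutrophil protein also made by inflamed epithelium, was at least 6.48-fold higher at day 7 (adjusted p = 0.019), and S100a9, Csf1r, Cd14 and Adgre1 were called higher at day 10. S100a9 was well above background on the 3 late arrays only and passed the filter through them, so its calls are a description. S100a8, its partner, was well above background on the day 10 array only. The summed level of the 10 genes, relative to the 75th percentile of an array, was 184 to 227 in controls, 177 to 215 at day 4, 176 to 265 at day 7 and 416 at day 10. Csf3r made up 75.2% to 80.3% of it in controls. Without S100a9 the sum was 184 to 227 in controls and 267 at day 10. Without Csf3r, and with S100a9 kept, it was 44.7 to 45.5 in controls and 30.8 to 38.9 at day 4. It was then 52.4 to 61.4 at day 7 and 236 at day 10. Ptprc, carried by all white blood cells, had signals of 137 and 176 in controls and 220 at day 10, a difference of -0.18 ± 0.26 (adjusted p = 0.65). The part of these cells in the signals of Plat, Plaur, F3 and Procr was not tested.

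Of 12 endothelial markers, Cdh5, Tek, Emcn, Cldn5 and Robo4 were well above background on no array. Of the 6 tested, Tie1 was called higher and Esam lower at day 7, and Tie1 and Egfl7 higher and Esam lower at day 10. Tie1, an endothelial receptor, was well above background on the 3 late arrays only, so its calls are a description. It was at least 2.26-fold above control at day 7 and at least 33.8-fold at day 10, where its signal was 661. Sox17, an endothelial transcription factor, was at background on the first 6 arrays and had a signal of 593 at day 10, at least 30.3-fold above control, and was not tested. The summed level of the 6 was 8.13 to 9.12 in controls, 8.22 to 8.53 at day 4, 9.76 to 10.9 at day 7 and 8.84 at day 10. Kdr made up 85.4% to 85.9% of it in controls, and without Kdr the sum was 1.15 to 1.33 in controls, 1.59 to 2.22 at day 4, 1.73 to 2.17 at day 7 and 3.58 at day 10. Of 8 platelet markers 4 were tested. Among them Gp6 passed the filter through the control and day 4 arrays only, so its calls are a description. Gp6 was called lower at day 7 and day 10 and Pf4 higher at day 10. The summed levels were 1.24 to 2.19 in controls, 1.00 to 1.08 at day 4, 0.713 to 1.19 at day 7 and 2.48 at day 10. Pf4 made up 61.5% of the sum at day 10, and Gp1bb 79.3% to 91.2% in controls. Without Pf4 the sum was 1.18 to 2.13 in controls and 0.955 at day 10. Without Gp1bb it was 0.193 to 0.256 in controls and 1.58 at day 10. Fibroblast markers (5 of 10 tested, with Col1a1 and Pdgfra at background) had summed levels of 1.45 to 1.77 in controls, 1.46 to 1.55 at day 4, 1.05 to 1.07 at day 7 and 0.975 at day 10, and Dcn was called lower at day 7. Smooth muscle markers (3 of 8 tested, with Myh11 and Des at background) went from 4.47 to 5.53 in controls to 3.63 to 4.28, 4.59 to 4.96 and 1.35 at days 4, 7 and 10, and Mylk was called lower at day 10.

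The summed T and B cell markers were lower than in controls at day 10 and not at day 7. The summed liver and pancreas markers were lower at day 7 and day 10. T and B cell markers (10 of 12 tested) had summed levels of 43.9 to 45.4 in controls, 36.9 to 48.7 at day 4, 52.3 to 54.6 at day 7 and 7.64 at day 10, with Cd3e, Cd3g, Cd3d, Cd8a and Cd4 called lower at day 10. Liver and pancreas markers (6 of 10 tested) had 9.33 to 10.4 in controls, 8.31 to 10.3 at day 4, 1.96 to 4.79 at day 7 and 0.777 at day 10, with Ttr called lower at day 7 and Alb, Ttr, Apoh, Ambp and Cela1 at day 10. Alb passed the filter through control and day 4 arrays only, so its call is a description. Several of the coagulation genes are, like Alb and Ttr, known as liver products, and the part of either marker group in their fall was not tested. The epithelial markers had 1941 to 2155 in controls, 1981 to 2048 at day 4, 2250 to 2315 at day 7 and 2205 at day 10. Among them Cdx1 was called lower at day 7, and at day 10 Cdh1 and Krt18 were called higher and Vil1 and Cdx1 lower.

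For each of the 4 genes tested, the 2 genes with the most similar course were taken by the root mean square difference of their log2 values over the 7 arrays, each gene centred on its own mean. The smaller it is, the more alike the courses. Nearest to Plat were the neutrophil protein gene S100a9 (0.63) and the chemokine gene Cxcl5 (0.71), with fitted differences from control of 4.19 and 3.03 at day 7 and 13.52 and 13.87 at day 10, against background signals. Nearest to Plaur were Teddm3 (0.51) and the thrombospondin gene Thbs1 (0.52), with 2.88 and 3.06 at day 7 and 6.76 and 7.21 at day 10. Nearest to F3 were Ramp3 (0.40) and the epithelial transcription factor gene Grhl3 (0.54), with 1.11 and 1.00 at day 7 and 6.80 and 6.48 at day 10. The probes of Teddm3 and Thbs1 were each well above background on 3 arrays, that of Ramp3 on 4 and that of Grhl3 on 5, and their differences, too, are partly against background signals. Nearest to Tfpi were Cyp4f40 (0.15) and Txndc16 (0.17), with -0.67 and -0.80 at day 7 and -3.16 and -2.91 at day 10. The day 10 array carries most of the spread in each of these courses.

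**Figure D4:**
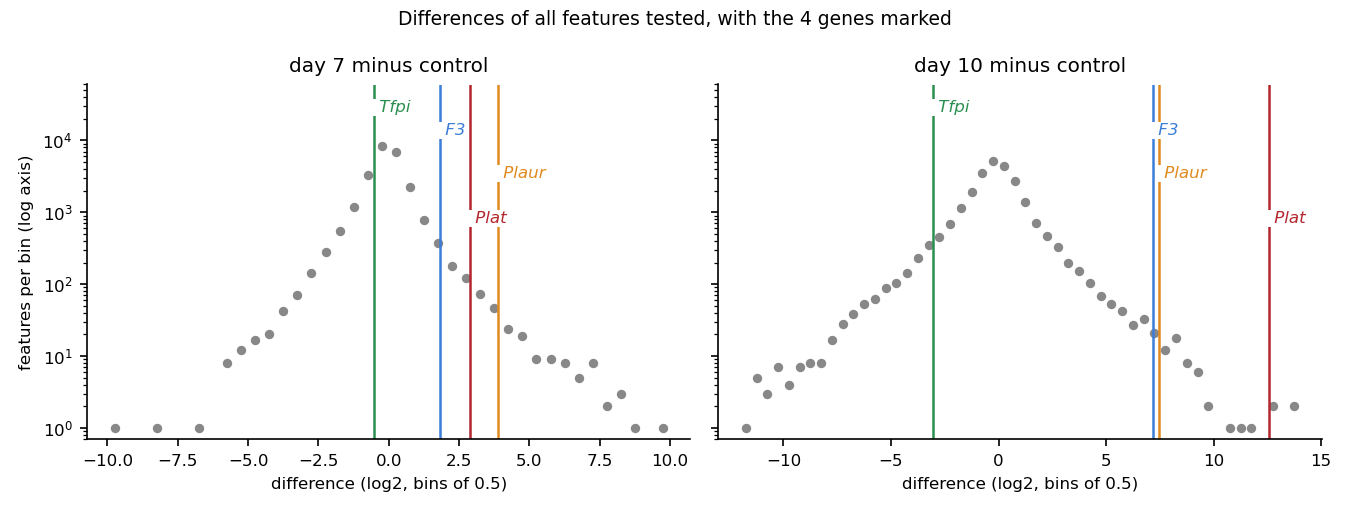
Number of features (log axis) in bins of 0.5 of the log2 difference from control, at day 7 (left) and day 10 (right), over all 24763 features tested, with vertical lines at the 4 genes. At day 7 Plaur (3.90), Plat and F3 (1.83) lie to the right of the bulk and Tfpi (-0.53) within it, and at day 10 Plaur (7.47) and F3 (7.17) lie far to the right and Tfpi (-3.06) to the left. The Plat lines are set against background signals in controls and mark no measured size.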

How the data were processed

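Intensity values were deposited as 1-colour Agilent scanner files (Feature Extraction 11.5.1.1, design 028005), per the file headers, and the signal used is the one after the software's background subtraction and detrending, with no scaling between arrays. The deposited value table held the same signals on a linear scale, not centred, within 0.1% for 100% of 55249 single-spot probes, with column medians of 15.2 to 30.5, and how it combined repeated spots stays unknown. The submitters' own statistical methods are not given in the sources used here.

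Control and outlier spots were left out, leaving 59305 spots of 55681 probes. The files hold accessions and no gene names, so probes were named through RefSeq (GRCm38.p6): 27509 had 1 symbol, 0 several and 28172 none. Signals were turned to log2 values minus the array's 75th percentile. Probes detected (well above background) on fewer than 2 of 7 arrays were dropped, and the brightest probe stood for a gene, which gave 24763 features (13805 with a symbol). R 4.3.3 with limma 3.58.1 (tables read by data.table, version 1.17.8) gave each group its own mean in a single fit (3 residual and 3.16 prior degrees of freedom), 2-sided. On simulated data at day 7 minus control over 24763 features, it recovered 34% of features changed by 2 and 87% of those changed by 4 on the log2 scale. The number of arrays limits the precision.

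The 8 genes and the lists were chosen with earlier results of these data known. Named besides them were Mob1a, Mob1b, the 4 genes of each pathway list with the smallest p at day 7, and the 2 nearest courses per gene tested. Other list genes (Lrp8, Plgrkt, Anxa2, S100a10, F7, F10, F13a1, F2r, Sox17 and the genes called in a list) were named after their values were seen. Alternatives were normexp (offset 50, on median signals, as the files hold no mean signals), other scalings, filters and probe rules, the value table, a replicate block, only the groups compared, and leaving out each array. A withheld gene is not reported here.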

Additional observations from a re-analysis of the deposited data

Results flagged for a closer look

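Some differences from control changed in size between knockout times, as tested directly by the step from one time to the next with limma and adjustment over all features. From day 4 to day 7 Plaur rose (3.67 ± 0.62, log2 difference ± SE, adjusted p = 0.042), while Serpinf2 (-1.88 ± 0.31, adjusted p = 0.041), Vldlr (-2.17 ± 0.35, adjusted p = 0.040) and Pros1 (-2.07 ± 0.24, adjusted p = 0.018) fell. In each of these 4 genes both day 7 arrays lay beyond both day 4 arrays.

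From day 7 to the lone day 10 array Plat (9.66 ± 0.68, adjusted p = 0.00097), Plaur (3.57 ± 0.75, adjusted p = 0.024), F3 (5.34 ± 0.37, adjusted p = 0.00097) and Serpina10 (1.97 ± 0.36, adjusted p = 0.016) rose, and Tfpi (-2.54 ± 0.31, adjusted p = 0.0041), Serpinf2 (-1.59 ± 0.38, adjusted p = 0.038) and Lrp1 (-2.49 ± 0.40, adjusted p = 0.010) fell. The day 10 array lay beyond both day 7 arrays in all 7. Plat entered the test only through its late arrays, so its value is a description. The day 7 means of Plat and Serpina10 each include an array at background.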

How the results depend on the processing

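Over the alternatives, the 4 genes tested kept their direction in every comparison except day 4 minus control, where none was called: Plat turned to 0.026 when the scaling used only probes seen on every array, to 0.031 with median scaling and to 0.25 with quantile normalization, and Tfpi turned to -0.032 with normexp. When an array was left out, the day 4 difference ran from -0.53 to 0.47 for Plat, from -0.40 to 0.85 for Plaur and from -0.14 to 0.36 for Tfpi. Of the 8 genes, the number called at day 7 minus control was 0 with no filter on dim probes in place of 3, and 0 to 3 when an array was left out (0 without control replicate 1 or day 7 replicate 1). For day 7 minus day 4 it was 2 with median scaling, 0 with no filter and 0 with the replicate block in place of 1, and 0 to 2 when an array was left out. It was 0 at day 4 under all alternatives, and 3 to 5 at day 10 minus control and at day 10 minus day 7. Replicate numbers did not pair the samples (correlations of deviations from the group mean of 0.0083, 0.086 and 0.25). With the replicate block, 1866 features were called at day 7 minus control in place of 1847, and the calls of Plaur from day 4 to day 7 (0.054), Proc at day 7 (0.056) and Hgfac at day 10 (0.055) ended. Over all alternatives the counts of features called ran from 1 to 27 (day 4, 8 as reported), 522 to 2071 (day 7, 1847), 0 to 1097 (day 7 minus day 4, 661), 4581 to 7484 (day 10, 6956) and 2480 to 4635 (day 10 minus day 7, 4439). The scaling moved the median of all features at day 10 from -0.15 to 0.08 (probes seen on every array) or -0.33 (median), far less than the differences of Plat, Plaur, F3 and Tfpi there.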
